A study of Mus musculus with 24 samples.

Results

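Macroautophagy starts when the ULK1 kinase complex, held together by ATG13, ATG101 and RB1CC1, turns on the class III phosphatidylinositol 3-kinase (PI3K) complexes, which write the lipid phosphatidylinositol 3-phosphate (PI3P) on membranes. The catalytic subunit PIK3C3 (VPS34) works with the scaffold PIK3R4 (VPS15) and with BECN1 (Beclin 1). Either ATG14 or UVRAG completes the complex: ATG14 takes it to the site where autophagosomes form, UVRAG to endosomes and lysosomes. MTOR restrains both the ULK1 complex and the transcription factors TFEB and TFE3. AMPK also phosphorylates ULK1, and its activation leads to dephosphorylation of TFEB. The 10 genes described here, *Ulk1*, *Ulk2*, *Rb1cc1*, *Atg13*, *Atg101*, *Becn1*, *Pik3c3*, *Pik3r4*, *Atg14* and *Uvrag*, encode these subunits. They were taken by name from 55487 genes in the count table, and all 10 were among the 15401 genes that passed the filter on low counts.

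mRNA was sequenced from mouse embryonic fibroblasts (MEFs), either wild type (WT) or lacking *Tfeb* and *Tfe3* (*tfeb tfe3* double-knockout, DKO). Cells of each genotype received DMSO vehicle, torin1 (an ATP-competitive MTOR inhibitor) or MK-8722 (a direct AMPK activator), which gives 6 groups of 4 libraries. The MEFs of both genotypes came from another laboratory, and an effect of the knockout and other differences between the WT and DKO cells cannot be told apart. The 4 libraries of a group came from 4 passages of the same cells (WT 7, 8, 9 and 11, DKO 8, 9, 10 and 11), and p-values therefore measure the spread between passages.

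Levels are given in CPM, the counts of a gene relative to the total of its library, scaled by the trimmed mean of M values (TMM), as mean ± SD (n = 4). Fold changes and adjusted p-values come from the edgeR quasi-likelihood test with Benjamini-Hochberg adjustment over the 15401 genes, fitted to all 24 libraries. A gene is said to have risen or fallen, or to be higher or lower, when its adjusted p was under 0.05 and its fold change was at least 1.2. Library totals ran from 24668921 to 33332562 counts, and the lowest count of any of the 10 genes in any library was 252, for *Atg14*. The RNA integrity number was 7.9 for DKO MK-8722 replicate 3 and 9.7 to 9.9 for all other libraries. *Tfeb* mRNA was 22.9 CPM in WT and 2.25 CPM in DKO under DMSO (log2 fold change -3.35, SE 0.10, adjusted p = 4.09e-18). *Tfe3* mRNA was at 120 and 124 CPM in the same groups, so that its level does not check the label. Of 10 fibroblast markers, *Col1a1*, *Vim* and *Fn1* were above 750 CPM in every library, while *Thy1*, *Dcn* and *Lum* were at 0 in at least 1. The summed fibroblast markers ran from 6577 to 9801 CPM in WT and from 5739 to 8350 CPM in DKO, and their part in the differences between genotypes was not tested. Epithelial, immune and endothelial markers summed to at most 2.65 CPM.

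**Figure D1:**
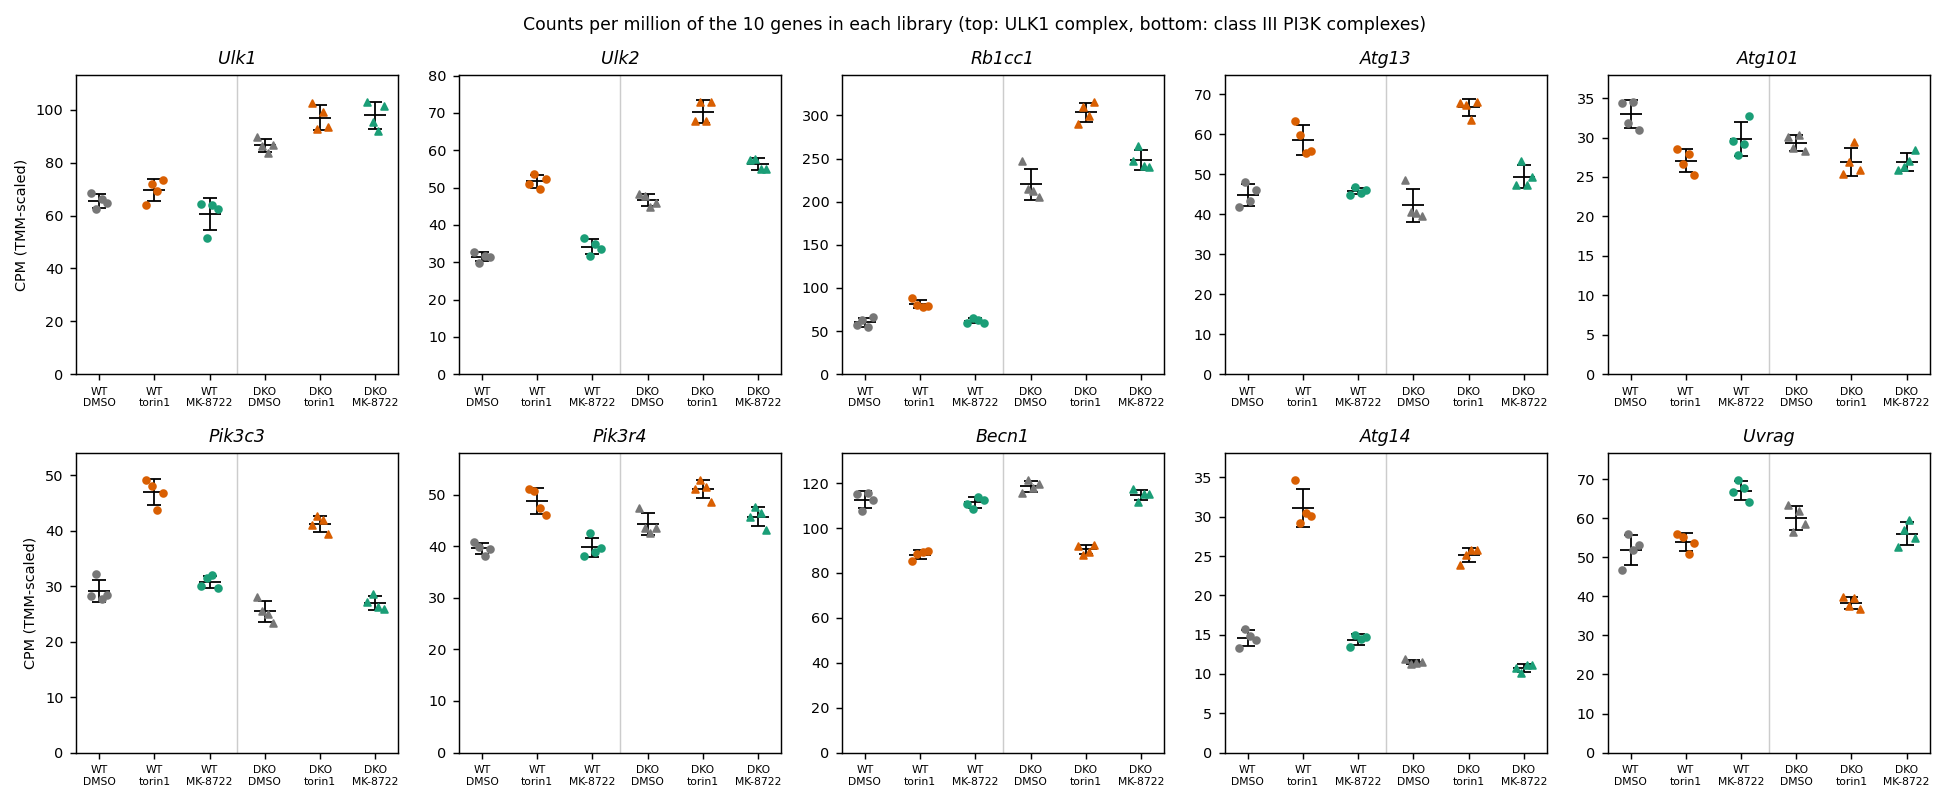
CPM (vertical axes, from 0) of each gene in each library, grouped by genotype and treatment. Circles are WT, triangles are DKO, and bars give the mean ± SD of 4 libraries. *Rb1cc1* stands apart by genotype, *Atg14* by torin1, and *Uvrag* rises with MK-8722 in WT and falls with torin1 in DKO.

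The promoters of *Atg14* and *Uvrag* are shown because, among the 10 genes after torin1, *Atg14* had the largest rise in both genotypes and *Uvrag* the largest fall in DKO. TFEB and TFE3 bind the E-box CACGTG. Promoter windows, 250 bases before to 50 bases after the RefSeq start (GRCm38.p6), were used for 7 of the 10 genes. Both strands of these windows were searched for CACGTG, and for its forms with T before it and with T before and A after it. *Rb1cc1*, *Becn1* and *Pik3c3* were left out of this search, and whether their promoters hold the E-box was not tested. The bases before the RefSeq starts, on the minus strand, lie at chr14:47568435-47568684 (*Atg14*) and chr7:99141145-99141394 (*Uvrag*), and the last sequence, at chr14:47568418-47568447, spans the *Atg14* start with CACGTG in capitals:
Atg14 upstream: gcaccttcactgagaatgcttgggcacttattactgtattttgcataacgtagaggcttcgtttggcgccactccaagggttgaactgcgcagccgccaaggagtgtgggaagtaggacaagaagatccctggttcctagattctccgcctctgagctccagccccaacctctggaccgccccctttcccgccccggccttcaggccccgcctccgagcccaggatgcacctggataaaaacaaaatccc
Uvrag upstream: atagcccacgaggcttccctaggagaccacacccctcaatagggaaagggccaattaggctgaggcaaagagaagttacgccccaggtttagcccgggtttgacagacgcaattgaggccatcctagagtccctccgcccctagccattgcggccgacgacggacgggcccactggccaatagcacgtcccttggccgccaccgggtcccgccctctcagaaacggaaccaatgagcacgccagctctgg
Atg14 start: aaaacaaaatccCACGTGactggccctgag
Of the 7 windows, 1, that of *Atg14*, held CACGTG, and its first base was the last base before the start. Read on the other strand, the same letters have a T before them. The E-box was in 7.15% of all 32851 windows of this length, its form with T before it in 3.77%, and its form with T before and A after it, which none of the 7 held, in 0.974%. This start (base 47568434) is also that of the protein-coding transcript with most *Atg14* RNA, while a second protein-coding transcript starts upstream, at base 47570649 (GENCODE annotation on GRCm38). The windows of *Ulk1*, *Ulk2*, *Atg13*, *Atg101*, *Pik3r4* and *Uvrag* did not hold these letters.

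Comparing torin1 with DMSO in WT MEFs asks how the initiation genes respond when MTOR is inhibited. Of the 10 genes, 6 rose and 2 fell, against 47.1% of all tested genes that changed (26.6% rose and 20.5% fell). The median log2 fold change of the 10 was 0.34, and that of all tested genes 0.05. *Atg14* changed most, and the 2 genes that fell were *Becn1* and *Atg101*.

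*Atg14*, the subunit that directs PIK3C3 to autophagosome formation, was at 13.3, 15.7, 14.9 and 14.3 CPM in the WT DMSO libraries (replicates 1 to 4) and at 34.7, 29.2, 30.5 and 30.2 CPM in the WT torin1 libraries. The groups did not overlap, and the rise was 2.14-fold (log2 1.1, SE 0.06, adjusted p = 2.84e-13). *Pik3c3*, the lipid kinase itself, rose from 29.1 ± 2.03 to 47.0 ± 2.32 CPM (1.61-fold, adjusted p = 2.10e-10). *Ulk2*, the kinase closest in sequence to *Ulk1*, rose from 31.4 ± 1.2 to 51.7 ± 1.76 CPM (1.64-fold, adjusted p = 3.22e-12).

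The scaffold of the ULK1 complex rose less. *Rb1cc1* (FIP200) went from 60.2 ± 5.05 to 81.4 ± 4.56 CPM (log2 0.44, SE 0.06, adjusted p = 1.55e-06), and *Atg13*, the subunit that MTOR phosphorylates, from 44.8 ± 2.78 to 58.5 ± 3.74 CPM (log2 0.38, SE 0.06, adjusted p = 6.82e-06). *Pik3r4* rose from 39.6 ± 1.11 to 48.8 ± 2.49 CPM (log2 0.30, SE 0.04, adjusted p = 3.96e-06). Its fold change lies near the threshold, and without WT torin1 replicate 1 it was log2 0.25, under 1.2-fold.

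*Becn1*, whose product joins the kinase to its regulators, fell from 113 ± 3.69 to 88.1 ± 1.98 CPM (log2 -0.35, SE 0.03, adjusted p = 8.53e-10). *Atg101*, which stabilizes ATG13, fell from 32.9 ± 1.76 to 27.1 ± 1.45 CPM (log2 -0.28, SE 0.06, adjusted p = 0.000125). No library overlapped between the groups in either gene. The call of *Atg101* is the weaker, since log2 fold changes of -0.19 with library size in place of TMM and -0.25 without WT torin1 replicate 4 are under 1.2-fold. *Ulk1* (log2 0.09, 95% confidence interval -0.03 to 0.21) and *Uvrag* (log2 0.05, interval -0.05 to 0.16) did not pass, and their groups overlapped.

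In DKO MEFs torin1 was compared with DMSO to ask which of these changes are seen without TFEB and TFE3. Of the 10 genes 5 rose and 2 fell, against 43.2% of all tested genes (23% rose and 20.2% fell), and the median log2 fold change was 0.33 against 0.02. *Atg14* was at 11.9, 11.3, 11.4 and 11.5 CPM under DMSO and at 23.9, 25.1, 25.8 and 25.8 CPM under torin1, a 2.19-fold rise (log2 1.13, SE 0.06, adjusted p = 3.67e-13). The lowest torin1 library was above the highest DMSO library by more than the range of either group. *Pik3c3* (1.62-fold), *Atg13* (1.58-fold), *Ulk2* (1.51-fold) and *Rb1cc1* (1.38-fold) rose with adjusted p between 7.47e-11 and 5.24e-07, and *Becn1* fell (log2 -0.39, SE 0.03, adjusted p = 2.04e-10).

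*Pik3r4* (log2 0.20, adjusted p = 0.000458) and *Ulk1* (log2 0.16, adjusted p = 0.0223) were under 1.2-fold, and *Atg101* did not pass (log2 -0.13, adjusted p = 0.0615). *Uvrag*, which did not pass in WT, fell in DKO from 63.4, 56.5, 61.8 and 58.6 CPM to 39.9, 37.6, 39.6 and 36.7 CPM (log2 -0.64, SE 0.05, adjusted p = 4.93e-10). These groups did not overlap.

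MK-8722 was compared with DMSO to ask what AMPK activation does to the same genes. In WT MEFs *Uvrag* alone among the 10 passed, against 16.1% of all tested genes (10.3% rose and 5.87% fell). It was at 46.7, 56.0, 51.9 and 53.1 CPM under DMSO and at 66.7, 69.8, 67.7 and 64.1 CPM under MK-8722 (1.29-fold, log2 0.37, SE 0.05, adjusted p = 8.95e-06). All 4 treated libraries were above all 4 DMSO libraries. By adjusted p alone, without the 1.2-fold limit, *Ulk2* (log2 0.12) passed too, against 31% of all tested genes. The other 9 genes had log2 fold changes between -0.14 and 0.12. For *Atg14* the value was -0.02 (interval -0.14 to 0.10) and for *Becn1* -0.02 (interval -0.08 to 0.05).

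In DKO MEFs 1 of the 10 genes passed, against 8.69% of all tested genes (5.47% rose and 3.21% fell). *Ulk2* rose from 46.7 ± 1.63 to 56.3 ± 1.52 CPM (1.21-fold, log2 0.27, SE 0.04, adjusted p = 0.000147). Its fold change sits at the threshold. It went to log2 0.26 without DKO MK-8722 replicate 1 or 2, to 0.25 without DKO DMSO replicate 3 and to 0.26 without DKO DMSO replicate 4, each under 1.2-fold. *Uvrag* was 60.1 ± 3.12 CPM under DMSO and 56.0 ± 2.93 CPM under MK-8722 (log2 -0.10, interval -0.21 to 0.01, adjusted p = 0.19). *Ulk1*, *Rb1cc1* and *Atg13* had adjusted p of 0.0364, 0.0395 and 0.0103 with log2 fold changes of 0.18, 0.17 and 0.22, all under 1.2-fold. By adjusted p alone these 3 and *Ulk2* passed, against 20.8% of all tested genes. Without DKO DMSO replicate 1, *Atg13* passed both limits.

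**Figure D2:**
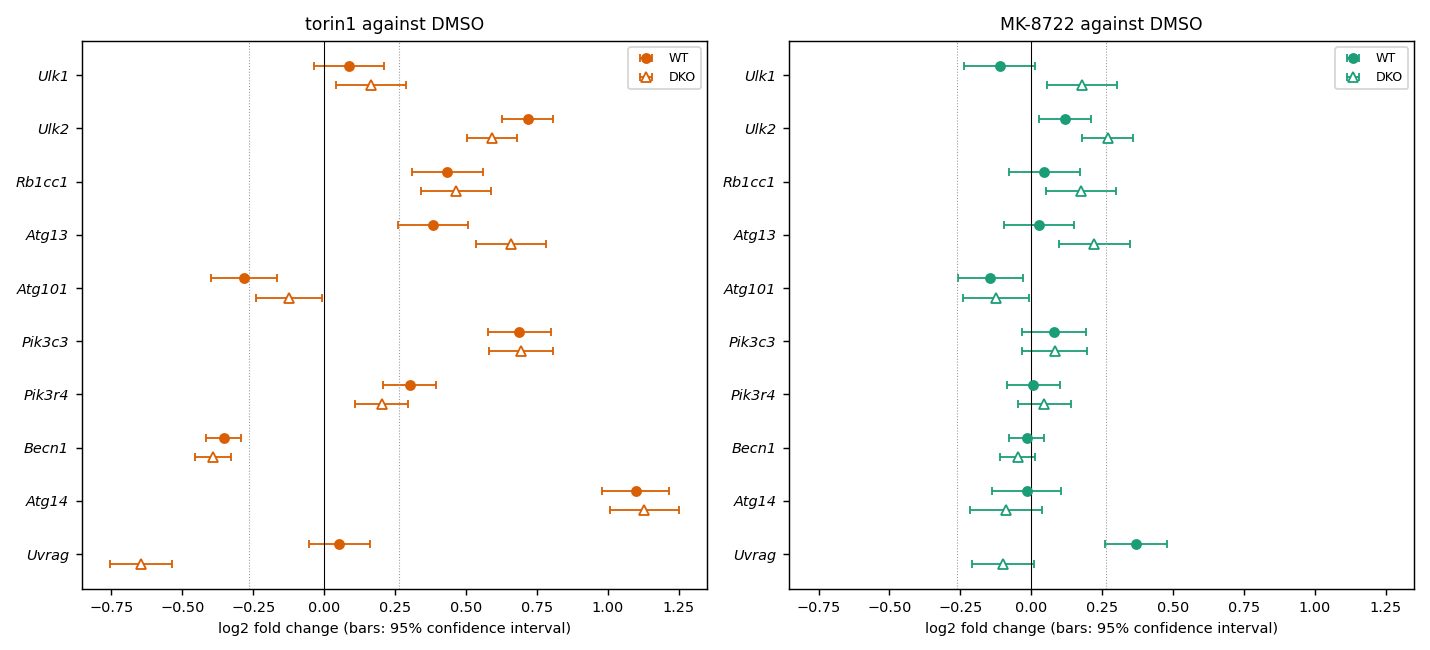
Log2 fold change (horizontal axes) of each gene for torin1 (left) and MK-8722 (right) against DMSO. Filled circles are WT, open triangles DKO, bars give the 95% confidence interval, and dotted lines mark a 1.2-fold change. *Uvrag* is the gene whose WT and DKO values lie farthest apart under both drugs, and *Atg14* the gene farthest right after torin1, at 1.1 and 1.13.

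Since the changes above share their DMSO controls, torin1 was also set against MK-8722 directly. In WT, torin1 was higher than MK-8722 for 6 genes and lower for 2, against 44.9% of all tested genes (24.9% and 20%). *Atg14* (log2 1.11), *Pik3c3* (0.61), *Ulk2* (0.60), *Rb1cc1* (0.39), *Atg13* (0.36) and *Pik3r4* (0.29, and 0.25 without WT torin1 replicate 1) were the 6, and *Becn1* (-0.34) and *Uvrag* (-0.32) the 2. In DKO 5 genes were higher under torin1 and 2 lower, against 40.4% of all tested genes (21.1% and 19.3%). *Atg14* (1.22) and *Pik3c3* (0.61) led, *Uvrag* (-0.54) and *Becn1* (-0.34) were lower, and *Pik3r4* (0.16) was under 1.2-fold.

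The test that bears on TFEB and TFE3 is whether the response to a drug differed between DKO and WT, an interaction term. For torin1, 1 of the 10 genes had a lower and 1 a higher response in DKO, against 11% of all tested genes (6.33% lower and 4.68% higher). *Uvrag* gave the lower response (log2 difference -0.70, SE 0.07, interval -0.85 to -0.54, adjusted p = 5.50e-07). *Atg13* gave the higher response (0.28, SE 0.08, interval 0.10 to 0.45, adjusted p = 0.0283), and that call was lost under 11 of 40 alternatives. It was lost when DKO torin1 replicate 4 (log2 difference 0.28, adjusted p = 0.0505), WT DMSO replicate 2 (0.25, 0.0599), WT torin1 replicate 4 (0.26, 0.0575), or DKO DMSO replicate 2 (0.25, 0.0617), 3 (0.25, 0.0673) or 4 (0.24, 0.0733) was left out.

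For MK-8722 the counts were also 1 lower and 1 higher, against 5.49% of all tested genes (4.08% lower and 1.42% higher). *Uvrag* again gave the lower response (-0.47, SE 0.07, interval -0.62 to -0.32, adjusted p = 0.00015). *Ulk1* gave the higher (0.29, SE 0.08, interval 0.11 to 0.46, adjusted p = 0.0387). The call on *Ulk1* was lost under 16 of 40 alternatives. *Ulk1* was at 64.5, 51.7, 63.9 and 62.3 CPM in the WT MK-8722 libraries, and the second of these, from passage 11, stands below the others. Without it the difference was 0.24 (adjusted p = 0.0415), under 1.2-fold. Adjusted p was between 0.0519 and 0.0907 when DKO MK-8722 replicate 1 or 4, WT DMSO replicate 1, 3 or 4, or DKO DMSO replicate 2, 3 or 4 was left out. Without DKO DMSO replicate 1, *Atg13* (higher in DKO) passed as well.

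For *Atg14* the torin1 responses in the genotypes differed by 0.03 (interval -0.14 to 0.20), and for *Pik3c3* by 0.01 (interval -0.15 to 0.16). For *Becn1* the difference was -0.04 (interval -0.13 to 0.05), for *Rb1cc1* 0.03 (interval -0.15 to 0.21) and for *Ulk2* -0.13 (interval -0.25 to 0.00). These intervals are all within the 1.2-fold limit. For *Atg101* the difference was 0.16, for *Pik3r4* -0.10 and for *Ulk1* 0.07, and none of them passed. *Atg101* and *Pik3r4* passed under torin1 in WT and not in DKO, which by itself shows no difference in response. Of the sequences printed above, the *Atg14* start has the E-box and the *Uvrag* window does not. The window covers a short stretch at 1 start site, and binding was not measured. For *Uvrag* it covers the start of the protein-coding transcript (base 99141141), with 29.1% of *Uvrag* RNA by transcript estimates, averaged over the 6 groups. The transcript with most *Uvrag* RNA (38.0%), annotated as a target of nonsense-mediated decay, starts at base 99016644, outside the window.

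**Figure D3:**
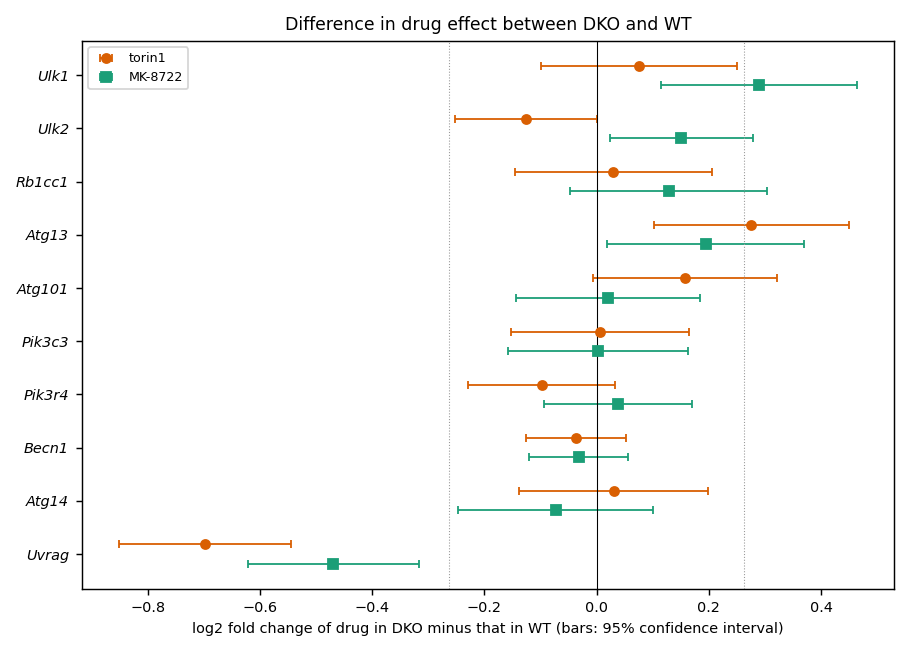
Log2 fold change of each drug in DKO minus that in WT (horizontal axis) for each gene, with 95% confidence intervals. Circles are torin1, squares MK-8722, and dotted lines mark a 1.2-fold difference. Both *Uvrag* values, -0.70 and -0.47, lie below the left line, and those of the other genes lie between -0.13 and 0.29.

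*Uvrag* lies on the minus strand of chromosome 7 (98885021 to 99141141, GENCODE annotation on GRCm38). Within passages, the WT change of *Uvrag* under MK-8722 ran from 0.32 to 0.46 on the log2 scale, above 0 in 4 of 4. Under torin1 it ran from -0.00225 to 0.12 in WT, above 0 in 3 of 4. In DKO the torin1 change ran from -0.75 to -0.55 and the MK-8722 change from -0.15 to -0.04, below 0 in 4 of 4 passages for each drug. The ranges of the genotypes do not overlap for either drug. These are the same libraries as in the interaction test, and how many of all tested genes show this was not counted.

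Salmon's transcript estimates, in TPM (shares of all transcripts of a library, corrected for length), show which *Uvrag* RNAs moved. The annotation lists 8 transcripts, of which 1, of 5157 bases, is called protein coding. This transcript was at 8.10 ± 0.68 TPM under DMSO, 7.89 ± 0.81 under torin1 and 10.9 ± 0.60 under MK-8722 in WT, and 8.14 ± 0.84, 5.27 ± 0.34 and 7.81 ± 0.46 TPM in DKO. Its means were alike in the genotypes under DMSO and lower in DKO under either drug. A transcript of 3147 bases, annotated as a target of nonsense-mediated decay, was estimated at 8.91 ± 0.62, 11.0 ± 0.44 and 12.1 ± 0.70 TPM in WT and at 11.4 ± 0.49, 7.97 ± 0.74 and 11.1 ± 0.90 TPM in DKO. Summed over transcripts, *Uvrag* in WT went from 24 ± 2.08 to 29.6 ± 0.91 TPM with torin1, while its CPM went from 51.9 ± 3.90 to 53.9 ± 2.32. Most reads are shared between transcripts of a gene, and such estimates are model-based.

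DKO was compared with WT under each treatment to see how the levels differ when TFEB and TFE3 are absent. Under DMSO 3 genes were higher and 1 lower, against 48.2% of all tested genes (23.5% higher and 24.6% lower). Under torin1 the counts were 3 and 2, against 51.8% (24% and 27.8%), and under MK-8722 3 and 1, against 48.7% (23.3% and 25.4%). By adjusted p alone, 9 of the 10 differed under DMSO and 8 under MK-8722, against 63.2% and 63.1% of all tested genes. *Rb1cc1*, *Ulk1* and *Ulk2* were the higher genes under every treatment, and *Atg14* was lower under every treatment.

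*Rb1cc1* was at 56.7, 62.6, 55.3 and 66.1 CPM in the WT DMSO libraries and at 247, 215, 213 and 206 CPM in the DKO DMSO libraries. The DKO level was 3.66-fold higher under DMSO (log2 1.87, SE 0.06, adjusted p = 4.71e-17), 3.73-fold under torin1 and 4-fold under MK-8722. The lowest DKO library was above the highest WT library by more than the whole WT level. On the TPM scale, which allows genes to be compared, *Rb1cc1* was 37.7 ± 3.37 in WT and 135 ± 13.2 in DKO under DMSO. Its ratio to *Atg13*, whose product it binds, was 1.73 ± 0.10 in WT and 6.60 ± 0.225 in DKO. Of its 16 annotated transcripts, the one with most TPM is called protein coding and has 2712 bases. That transcript was 7.96 ± 0.89 TPM in WT and 29.9 ± 2.42 in DKO, at 21.1% and 22.2% of the gene. The longest, also called protein coding, has 7607 bases and held 8.43% of the gene, averaged over the 6 groups.

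*Rb1cc1* lies on the plus strand of chromosome 1 (6206197 to 6276648). The 5 nearest tested protein-coding genes on each side were compared in the same way, a choice made after the values of some had been seen. Of these 10, 9 were higher in DKO under DMSO, with a median log2 fold change of 0.76. *Alkal1* (1.74), whose first base lies 0.153 Mb to the right of that of *Rb1cc1*, was among them, as were *Rgs20* (1.30) and *Atp6v1h* (0.88) on its left. *Adhfe1* (-0.12) was the exception. Under torin1 6 of the 10 were higher and 2 lower, and under MK-8722 6 and 1. Of all tested genes, 23.5% were higher and 24.6% lower in DKO under DMSO. Around the other 9 genes, between 0 and 5 of 10 neighbors were higher and between 1 and 6 lower. Neighbors of *Uvrag* were 5 higher and 4 lower, those of *Pik3c3* 0 and 6, and those of *Atg101* 2 and 5. The part of the chromosomal region in the level of *Rb1cc1* was not tested. The antisense gene 4732440D04Rik overlaps *Rb1cc1* and held at most 148 counts in any library.

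**Figure D4:**
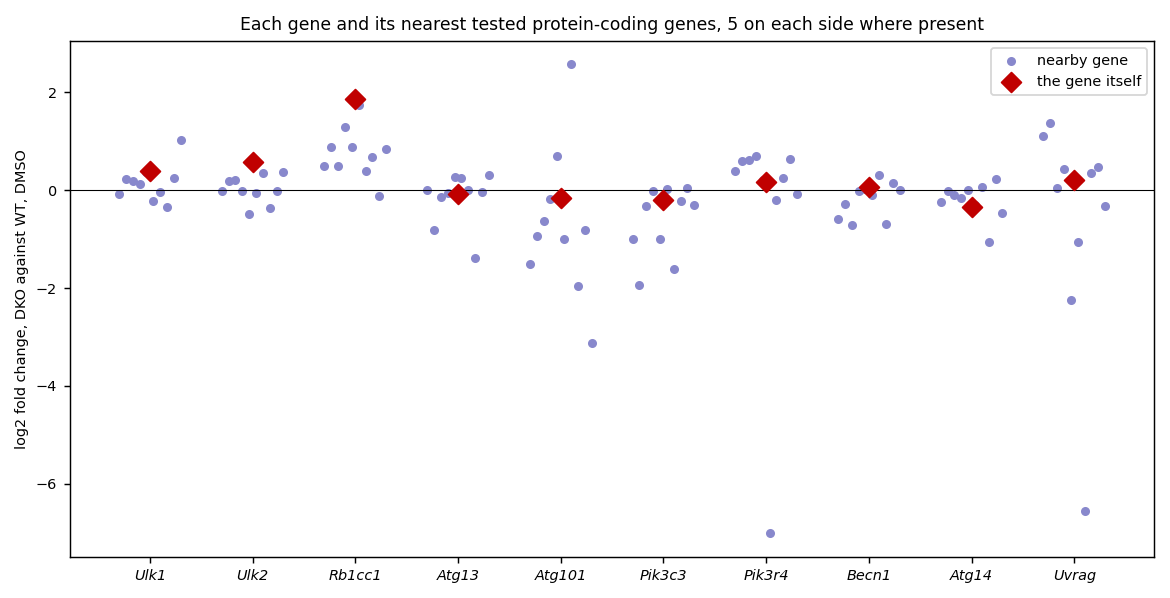
Log2 fold change of DKO against WT under DMSO (vertical axis) for each of the 10 genes (diamonds) and its 5 nearest tested protein-coding genes on each side (dots, in chromosomal order). At *Rb1cc1* 9 of 10 nearby genes passed the test as higher in DKO and 0 as lower. At each of the other genes at most 5 passed as higher and at most 6 as lower (5 and 4 at *Uvrag*, 0 and 6 at *Pik3c3*).

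The ULK kinases were both higher in DKO. *Ulk1* was 65.5 ± 2.68 CPM in WT and 86.5 ± 2.58 in DKO under DMSO (log2 0.40, SE 0.06, adjusted p = 3.53e-06), with differences of 0.48 under torin1 and 0.69 under MK-8722. *Ulk2* differed by 0.57 under DMSO (SE 0.04, adjusted p = 1.10e-10), 0.44 under torin1 and 0.72 under MK-8722. No library overlapped between genotypes in any of the 6 comparisons. Between 48.2% and 51.8% of all tested genes differed between genotypes under a given treatment, and how many of them had no overlap was not counted. The ratio of *Ulk1* to *Ulk2* TPM was 2.43 ± 0.16 under DMSO and 1.62 ± 0.07 under torin1 in WT, and 2.18 ± 0.04 and 1.63 ± 0.19 in DKO. *Ulk1* thus stayed the more abundant RNA in every library, by a smaller ratio under torin1.

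*Atg14* was lower in DKO by log2 -0.34 under DMSO (SE 0.06, adjusted p = 2.95e-05), -0.31 under torin1 and -0.41 under MK-8722. Under torin1 the difference was -0.24, under 1.2-fold, without WT torin1 replicate 1, the highest *Atg14* library. *Uvrag* changed sides with treatment, at 0.21 under DMSO (adjusted p = 0.00125, under 1.2-fold), -0.49 under torin1 (adjusted p = 2.60e-08) and -0.26 under MK-8722 (adjusted p = 0.00015, just under 1.2-fold). Under MK-8722 it passed in 9 of the 24 fits that left out a library. *Pik3c3* was lower by -0.19 under each treatment with adjusted p from 0.00373 to 0.00418, under 1.2-fold. *Becn1*, *Atg101*, *Pik3r4* and *Atg13* differed by at most 0.20 in either direction.

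Because ATG14 and UVRAG take the same place beside BECN1, their RNAs were set against each other. The *Atg14* to *Uvrag* ratio of TPM was 0.275 ± 0.022 under DMSO, 0.495 ± 0.033 under torin1 and 0.193 ± 0.009 under MK-8722 in WT. In DKO it was 0.174 ± 0.006, 0.559 ± 0.026 and 0.177 ± 0.010. Torin1 libraries were thus above all DMSO and MK-8722 libraries in both genotypes. In WT the MK-8722 libraries were below the DMSO libraries, and in DKO they overlapped. The ratio of *Becn1* to *Pik3c3* went the other way, from 10.0 ± 1.15 to 4.80 ± 0.32 with torin1 in WT and from 12.3 ± 1.35 to 5.78 ± 0.48 in DKO. Both ratios restate the changes of the single genes given above, and the make-up of the complexes was not measured. The protein-coding transcript that starts at the printed *Atg14* sequence made up 66.9% to 71.5% of *Atg14* TPM in the 6 groups.

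**Figure D5:**
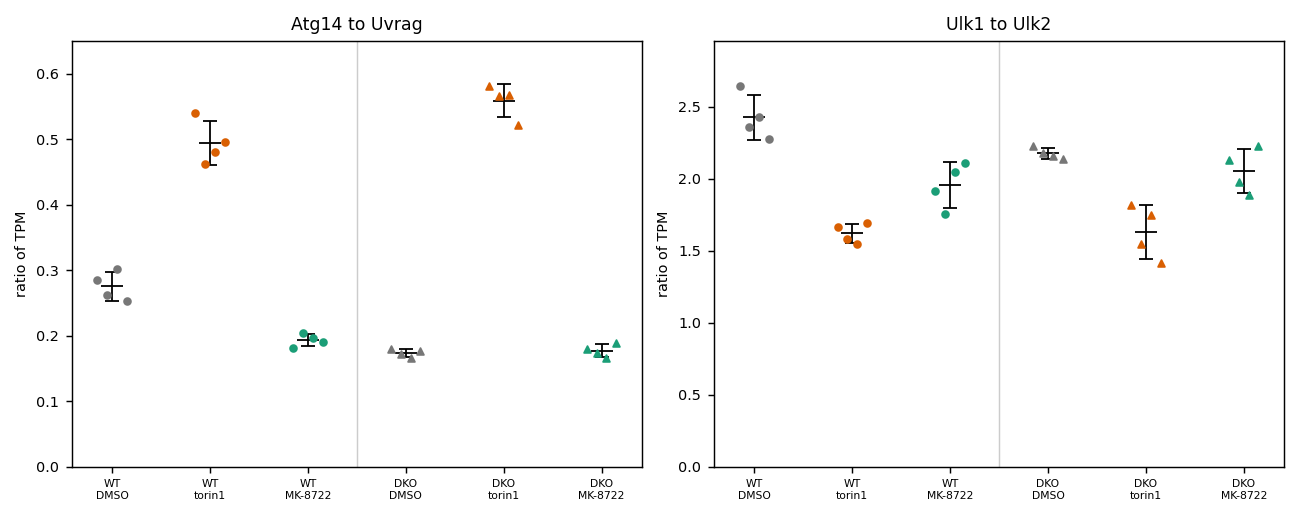
Ratio of TPM (vertical axes, from 0) of *Atg14* to *Uvrag* and of *Ulk1* to *Ulk2* in each library. Circles are WT, triangles DKO, and bars give the mean ± SD of 4 libraries. The *Atg14* to *Uvrag* ratio is highest under torin1 in both genotypes, and all *Ulk1* to *Ulk2* ratios lie above 1.

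TPM of a gene depends on the transcripts to which its reads are given. For *Becn1*, a transcript of 487 bases annotated as a retained intron held 28.0% of TPM but 8.17% of estimated counts, averaged over the 6 groups. In order of TPM in WT under DMSO, *Becn1* (142 ± 7.73) was far above the rest. It was followed by *Atg101* (46.6 ± 2.67), *Rb1cc1* (37.7 ± 3.37), *Ulk1* (28.5 ± 2.68), *Uvrag* (24 ± 2.08), *Atg13* (21.8 ± 1.58), *Pik3r4* (16.3 ± 1.17), *Pik3c3* (14.3 ± 0.98) and *Ulk2* (11.7 ± 0.43). *Atg14* (6.58 ± 0.36) was lowest in all 6 groups. The libraries of *Ulk1* and *Uvrag*, of *Uvrag* and *Atg13*, and of *Pik3r4* and *Pik3c3* overlapped. In DKO the *Rb1cc1* libraries were all above those of *Becn1* under torin1 (191 ± 6.34 against 119 ± 7.30). They overlapped under DMSO (135 ± 13.2 against 149 ± 5.22) and under MK-8722 (156 ± 7.68 against 147 ± 2.19).

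Lists of genes on either side of these complexes were read the same way. The 23 later autophagosome genes cover PI3P readers, ATG9 and ATG2, and the conjugation of the ATG8 family. The response to torin1 was lower in DKO for 7 and higher for 1 of them, and that to MK-8722 lower for 5 and higher for 0, against 11% and 5.49% of all tested genes. *Map1lc3b* (LC3B) went from 94.5 ± 3.30 to 178 ± 3.49 CPM with torin1 in WT and from 122 ± 4.39 to 146 ± 7.27 in DKO (difference -0.65, SE 0.06, adjusted p = 4.04e-08). *Gabarap*, another ATG8 protein (-0.78, adjusted p = 5.86e-09), and *Atg3*, the enzyme that conjugates ATG8 proteins (-0.63, adjusted p = 2.15e-07), had lower torin1 responses too. The 3 also had lower MK-8722 responses (-0.66, -0.55 and -0.39).

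The list of PI3P turnover includes, among others, enzymes that phosphorylate PI3P further or remove its phosphate. Among its 17 tested genes, the torin1 response was lower in DKO for 4 and the MK-8722 response for 3, with none higher. Of all tested genes, 6.33% and 4.08% were lower. *Vac14*, the scaffold of the PIKFYVE complex, went from 66.6 ± 4.25 to 89.7 ± 5.09 CPM with MK-8722 in WT and from 92.2 ± 2.52 to 87.5 ± 5.06 in DKO (difference -0.50, SE 0.07, adjusted p = 3.59e-05). *Fig4* (-0.50) and *Mtm1* (-0.73) were named for torin1 along with *Vac14* (-0.41), and *Pikfyve* (-0.26) passed for MK-8722. *Mtm1* had few counts, at 3.23 ± 0.29 CPM in WT and 6.05 ± 1.13 in DKO under DMSO (SE of the difference 0.16). *Fig4* was 35.0 ± 2.73 CPM in WT and 49.2 ± 1.35 in DKO under DMSO, and 33.7 ± 2.22 and 33.5 ± 1.47 under torin1. Under torin1 *Vac14* was 65.0 ± 3.37 CPM in WT and 67.5 ± 0.77 in DKO. *Pik3c2a*, a class II PI3K, was under 1.2-fold (-0.26, adjusted p = 0.0348).

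Of 14 tested regulators and partners of the complexes, 1 (7.14%) had a lower response to each drug in DKO and none a higher one, near the 6.33% and 4.08% of all tested genes. *Bcl2*, which binds BECN1, went from 11.5 ± 0.66 to 14.1 ± 0.67 CPM with torin1 in WT and from 26.0 ± 0.99 to 22.8 ± 1.64 in DKO (difference -0.48, SE 0.09, adjusted p = 0.00063). *Nedd4l*, a ubiquitin ligase, had a lower MK-8722 response (-0.53, SE 0.10, adjusted p = 0.00141). *Rubcn*, whose product restrains the UVRAG complex, differed by -0.15 for torin1 (adjusted p = 0.04, under 1.2-fold) and -0.14 for MK-8722 (adjusted p = 0.109). *Vmp1* (0.14 for torin1) and *Bcl2l1* (-0.42 for MK-8722, adjusted p = 0.0677) did not pass.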

How the data were processed

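Poly(A) RNA of 24 MEF cultures was made into libraries and sequenced in pairs. The authors ran the nf-core/rnaseq pipeline, in which STAR and Salmon gave estimated counts per gene and TPM per transcript on GRCm38, and deposited both; the strand setting is not given in the sources used here. Per the labels all libraries are 1 batch, so no batch was removed here. The authors' methods do name a removal of batch effects with limma. No column was left out.

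Here the estimated counts were rounded, filtered with filterByExpr (minimum count 10; 15401 of 55487 genes kept), scaled by TMM and tested with edgeR 4.0.16 (R 4.3.3), quasi-likelihood, 1 mean per group. A gene counted as changed past 1.2-fold with an adjusted p under 0.05. Deposited TPM served for ratios and transcripts. Totals were 24668921 to 33332562 counts, and the biological coefficient of variation of the 10 genes was 4.11% to 6.84%. The scripts were tested on simulated data.

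The members and lists were chosen with earlier results of these data known. Named genes are the 10 members, *Tfeb* and *Tfe3*, and up to 3 genes per list and drug with the lowest adjusted p for the response. Markers, neighbors of *Rb1cc1* and an overlapping gene are named outside this rule, the neighbors and the overlapping gene after their values were seen. The genes most like *Uvrag*, the member called for both responses, were also to be named and are not reported here. Lists hold regulators and partners (15 genes, 14 tested), later autophagosome genes (23) and PI3P turnover (18, 17 tested). Markers were fibroblast, epithelial, immune and endothelial. Alternatives covered the filter, normalization, test, threshold, gene length, passages, blocks and single libraries. Replicate numbers did not pair the samples. Replicate pairs differed by more than counting noise (chi-square per degree of freedom 3.80 to 39.2).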

Additional observations from a re-analysis of the deposited data

Results flagged for a closer look

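Single libraries stood apart from the other 3 of their group in 3 of 60 groups examined (10 genes in 6 groups), and chance would place about 1 in 20, or 3, there. *Ulk1* was 51.7 CPM in WT MK-8722 replicate 2, below the others. *Atg13* was 48.5 CPM in DKO DMSO replicate 1, and *Pik3c3* 32.1 CPM in WT DMSO replicate 2, each above the others. All 3 libraries were from passage 11, and the part of passage in these values was not tested.

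The response to a drug differed between DKO and WT in 4 tests by the interaction term. For *Uvrag* the log2 differences were -0.70 (torin1) and -0.47 (MK-8722). Within passages, in the same libraries that gave these values, the ranges of the genotypes did not overlap. *Atg13* gave 0.28 with torin1 and *Ulk1* 0.29 with MK-8722, and each of these involves a group with a library that stood apart.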

How the results depend on the processing

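Of 49 calls on the 10 genes, 34 were kept under every alternative run (40, or 39 for DKO against WT, where a genotype-by-passage block could not be fitted) and none reversed. With adjusted p alone the calls rose to 2 for MK-8722 in WT, 4 for MK-8722 in DKO, 9 for DKO against WT under DMSO and 8 under MK-8722. With glmTreat against 1.2-fold they were 0 for MK-8722 in either genotype, 1 for the torin1 response, 0 for the MK-8722 response (*Uvrag* adjusted p = 0.0603) and 5 for torin1 against MK-8722 in WT. Calls for MK-8722 in DKO were 0 with no filter and 0 with a gene-length offset. The torin1 response kept 1 call, without *Atg13*, with library size alone, the length offset, only the groups compared, or no DKO passage 8. The MK-8722 response kept 1, without *Ulk1*, under these 4 settings, with no filter, and without WT passage 11. Leaving out 1 library gave 0 to 2 for MK-8722 in DKO, 1 to 2 for the torin1 response, 1 to 3 for the MK-8722 response, 7 to 8 for torin1 in WT and for torin1 against MK-8722 in WT, and 4 to 5 for DKO against WT under torin1 and MK-8722. *Pik3r4* under torin1 in WT (0.25) and *Atg14* in DKO against WT under torin1 (-0.24) fell under 1.2-fold without WT passage 11. The causes were not tested.

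Same-numbered libraries deviated together with a median r of 0.044 (13 of 60 pairs over 0.1), and 8 of 24 libraries correlated best with their own number. With the replicate block the counts were 8 for torin1 in WT, 7 in DKO, and 2 for each response. Libraries of 1 genotype and passage had a median r of 0.157, and 22 of 24 libraries correlated best with their own passage. A passage block changed 1 call, adding *Uvrag* to DKO against WT under MK-8722 (5 calls). With estimated counts in place of TPM the main transcript's share moved by more than 1 SD in 7 of 10 genes, and stayed within it for *Pik3c3*, *Atg14* and *Uvrag*. The lowest count of any of these genes in a library was 252, and with 4 libraries a group the 95% intervals above show the differences that could not be told from 0.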
